A study of Macrostomum lignano with 16 samples.

Results

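A set of 157 transcripts of 76437 in the table was examined in the marine flatworm Macrostomum lignano, chosen by a rule on the measured values themselves. Levels are in CPM, the estimated reads of a transcript scaled to a common library total, and the most abundant transcript, RNA815_80.1, is left out of that total. A transcript is a member when its mean over all 16 libraries is at least 4 CPM and every library of paired or octet worms lies above every library of isolated or joined worms. Its paired mean must also be 1.6 to under 4 times its isolated mean, and its octet mean under 1.3 times its paired mean. The set was proposed as rises that 1 lasting partner already brings to their full level. Because the last condition depends on how libraries are scaled, the set is called here by its rule. The transcripts are given by identifier, since the table pairs none with a gene name. For the same reason no marker of a tissue or cell type could be looked up, and no role is given to any member.

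All worms were adults of strain DV1, 66 to 69 days old, kept in artificial sea water and fed diatoms. Isolated worms spent the 64 days of the experiment alone. Joined worms were alone as well until 2 of them were put together for the closing 24 h. Paired worms lived as 2 throughout, and octet worms as 8. Each group has 4 libraries, and each library holds RNA of a pool of whole worms, so a p-value measures the spread between pools and not between single worms.

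Macrostomum lignano is a simultaneous hermaphrodite: an adult carries testes and ovaries at the same time and gives and receives sperm in reciprocal matings. Sex allocation is the split of its reproductive effort between the male and the female side. Worms in larger groups are known to put more into the testes, since the sperm of several mates then compete inside a partner. The joined worms were meant to show early responses to mating. In RNA of whole worms, more cells of a type and more RNA per cell cannot be told apart.

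The rule was met in steps. Of the 76437 transcripts, 23788 had a mean of at least 4 CPM, and 713 of these had every paired and octet library above every isolated and joined library. Among the 713, the paired mean was under 1.6 times the isolated mean in 380 and 4 times or more in 85. The other 248 fell within the range, and 157 of them had an octet mean under 1.3 times the paired mean, which left 91 at or above that bound. RNA815_10315 entered with a paired to isolated ratio of 1.601, where RNA815_31273 stayed out with 1.597. RNA815_50362 entered with an octet to paired ratio of 1.297, and RNA815_17770 stayed out with 1.304. In RNA815_5072 the lowest paired or octet library had 22.14 CPM and the highest other library 22.13 CPM, while in RNA815_8451 the lowest had 20.52 and the highest other library 20.56. RNA815_59989 was the scarcest member, at a mean of 4.00 CPM, and had the highest paired to isolated ratio, 3.87. The nearest transcript below the level limit was RNA815_34702 at 3.84 CPM, and the nearest beyond the upper ratio limit was RNA815_19312 at 4.32.

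The libraries held 7302416 to 10112451 estimated reads. RNA815_80.1 alone took 9.17% to 21.5% of them. Its share was 19.3% ± 3.13 in isolated, 18.2% ± 3.43 in joined, 17.3% ± 3.04 in paired and 13.4% ± 3.86 in octet worms (SD, n = 4 each). The lowest estimated count of a member in any library ranged from 5 to 9015 over the set, with a median of 56.

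Summed over the 157 members, the isolated libraries held 9222.5, 8636, 8572 and 8481 CPM, the joined libraries 8166, 8825, 7374 and 8632, the paired libraries 16147, 14399, 15524 and 16866, and the octet libraries 17993, 17773, 16649 and 17374. The paired and octet libraries thus stood clear of the others, as the rule requires, and the octet and paired libraries overlapped only between octet replicate 3 and paired replicate 4. The isolated and joined libraries were interleaved. The group means were 8728 ± 336 in isolated, 8249 ± 646 in joined, 15734 ± 1045 in paired and 17447 ± 591 in octet worms (SD, n = 4 each). Most members are scarce, with a median mean level of 17.3 CPM. Of the 157, 84 had a mean under 20 CPM and 24 a mean above 100 CPM, and the highest reached 2350 CPM.

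**Figure D1:**
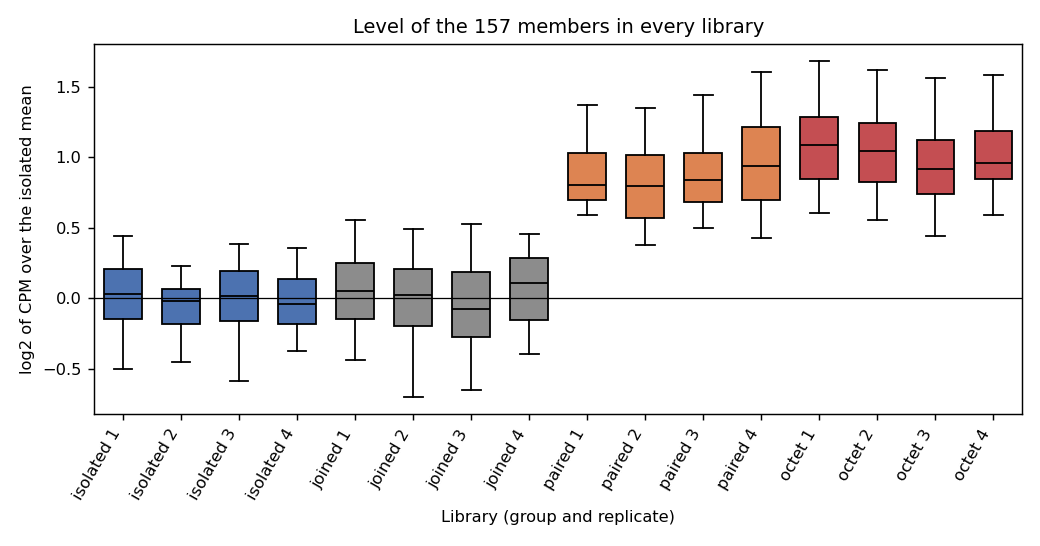
Each box shows the 157 members in 1 library, as log2 of a member's CPM over its isolated mean (line: median, box: quartiles, farthest points not drawn). The isolated and joined boxes lie around 0, and the 8 paired and octet boxes lie above them, which the rule sets. The octet medians lie above the paired ones, except octet replicate 3, which lies just under paired replicate 4.

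The paired to isolated ratio had a median of 1.79 over the members, with quartiles of 1.67 and 1.98. It was under 2 in 120 members, 2 or more in 37 and 3 or more in 4, so most members stood not far above the lower bound of the rule. The rule sets this ratio and keeps paired and octet libraries apart from isolated and joined ones, so calls for paired or octet against isolated or joined worms follow from the selection and are a description, with nothing read from them. In limma-voom, a linear model over all 16 libraries with Benjamini-Hochberg adjustment over 40265 transcripts, 131 of 157 were higher in paired than in isolated worms at an adjusted p under 0.05, beside 1.37% of all transcripts tested. For paired against joined worms 139 members passed, beside 3.25% of all. For octet worms all 157 members passed against isolated worms, beside 12.8%, and all 157 against joined worms, beside 18.6%. The comparisons share libraries and are not independent of each other. The median fitted log2 differences were 0.83 for paired and 1.17 for octet against isolated worms, and 0.89 and 1.21 against joined worms. Fitted to the 8 libraries compared, 86 members passed for paired against isolated worms, beside 1.11% of all transcripts in either direction.

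The most abundant member was RNA815_3906, with 2051, 1664, 1618 and 1776 CPM in the isolated libraries, 1470.3, 2164, 1542 and 1659 in the joined, 3062, 2771, 2889 and 2958 in the paired and 2700.1, 3159, 3144 and 2967 in the octet libraries. Its highest isolated or joined library, joined replicate 2, stayed below its lowest paired or octet library, octet replicate 1, and the paired and octet libraries overlapped. The means were 1778 ± 194 CPM in isolated and 1709 ± 313 in joined worms, against 2920.0 ± 122 in paired and 2992 ± 214 in octet worms (SD, n = 4 each). Without it the summed level of the members was 6950 ± 191 CPM in isolated, 6541 ± 492 in joined, 12814 ± 950.1 in paired and 14455 ± 738 in octet worms, in the same order as with it.

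RNA815_3897 was far more even within the worms without lasting company, at 535, 552, 562 and 519 CPM in the isolated libraries, 520.3, 525, 472 and 529 in the joined, 1201, 942, 891 and 1074 in the paired and 1531, 1406, 1113 and 1052 in the octet libraries. The 8 isolated and joined libraries spanned 472 to 562 CPM, and the paired and octet libraries, at 891 to 1531, overlapped each other. RNA815_5573.1 had 713, 738, 621 and 508 CPM in the isolated libraries, 537, 598, 412 and 578 in the joined, 1159, 975, 1042 and 1305 in the paired and 1523, 1714, 1189 and 1354 in the octet libraries. All octet libraries but replicate 3 were above all paired libraries, and its octet to paired ratio of 1.29 lies just inside the bound.

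The paired to isolated ratio was 3 or more in RNA815_59989, RNA815_18680, RNA815_8445.4 and RNA815_16433. RNA815_18680 held 287, 249, 115 and 158 CPM in the isolated libraries, 196, 259, 108 and 297 in the joined, 740.4, 491, 631 and 1058 in the paired and 673, 845, 442 and 605 in the octet libraries. Its isolated and joined libraries varied by more than 2-fold within each group, and so did the paired libraries, which reached from 491 to 1058. This was the widest spread between pools of any member, with a pooled within-group SD of 0.54 on the log2 scale against a median of 0.24 over the members. The scarcest member, RNA815_59989, had 2.297, 1.59, 0.835 and 1.197 CPM in the isolated libraries, 1.305, 2.51, 0.592 and 1.81 in the joined, 5.73, 3.30, 4.67 and 9.17 in the paired and 7.69, 7.33, 5.61 and 8.42 in the octet libraries. Its lowest paired library, replicate 2 at 3.30 CPM, was 1.31 times its highest joined library, replicate 2 at 2.51 CPM. The median of this gap over the members was 1.13 times.

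RNA815_16433 had the widest gap of all members. It stood at 7.35, 6.83, 4.87 and 7.52 CPM in the isolated libraries, 6.20, 8.00, 5.44 and 7.39 in the joined, 23.9, 17.4, 17.6 and 24.0 in the paired and 21.4, 30.7, 19.7 and 21.4 in the octet libraries. Its lowest paired or octet library was 2.17 times its highest isolated or joined library. The next widest gap, 1.97 times, belonged to RNA815_33011, with 3.37, 4.13, 3.06 and 5.47 CPM in the isolated libraries, 4.08, 2.51, 3.67 and 2.79 in the joined, 10.8, 10.8, 11.5 and 12.7 in the paired and 14.9, 13.4, 12.1 and 12.4 in the octet libraries. In both, the isolated and joined libraries overlapped, as did the paired and octet libraries. A gap of more than 1.5 times was found in 8 members, RNA815_7755 (1.69 times) and RNA815_3897 (1.59 times) among them, and a gap of less than 1.1 times in 64. The median gap was 1.13 times.

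**Figure D2:**
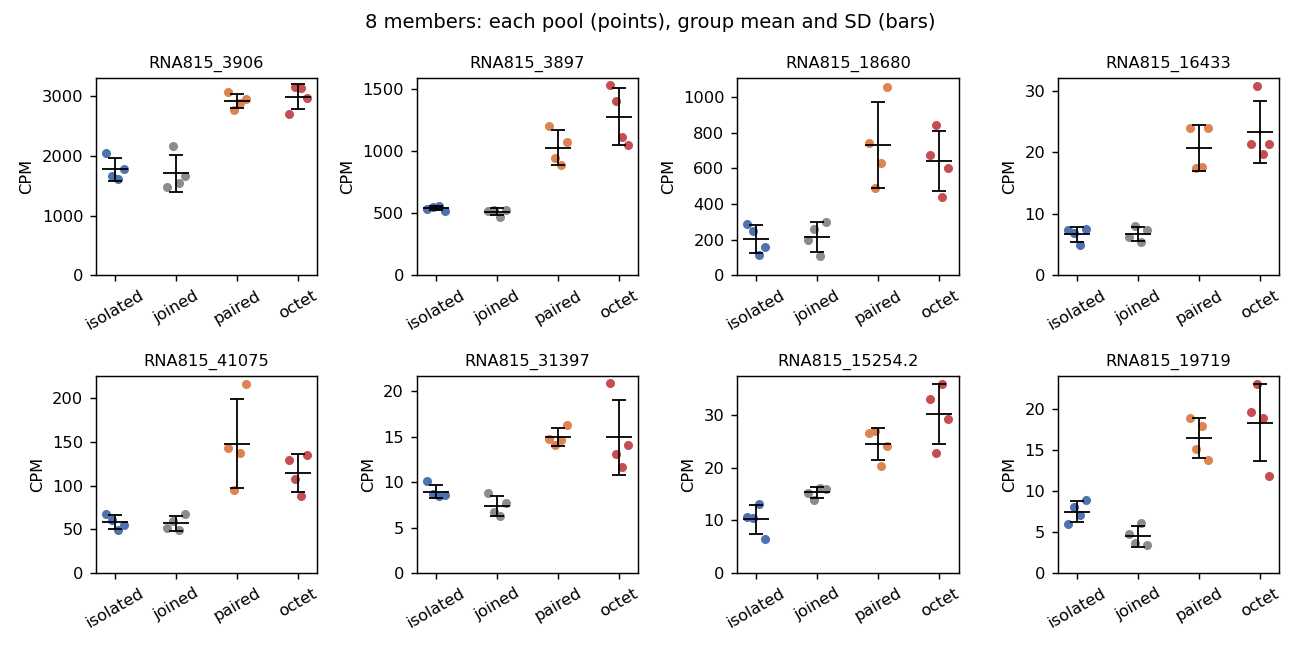
Level of 8 members in CPM in every library (points), with the group mean and SD (bars, n = 4), each panel on its own axis from 0. In RNA815_41075 the octet mean is the lower of the 2 raised means, in RNA815_31397 both are equal at 15.0 CPM, and in RNA815_15254.2 and RNA815_19719 the joined libraries lie above and mostly below the isolated ones, in that order.

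Octet worms gave levels near those of paired worms in part of the set. The octet to paired ratio of the members had a median of 1.12 and ran from 0.756 to 1.297, with the upper end set by the rule. It lay between 0.9 and 1.1 in 63 members and above 1.1 in 83, and was under 0.9 in 11. The octet mean was below the paired mean in 34 members. With a paired or octet library left out, this count ran from 21 (paired replicate 4) to 43 (paired replicate 2). Every octet library was above every paired library in 11 members, where 2.66% of the 23788 transcripts with a mean of at least 4 CPM showed this, and every octet library was below every paired library in 0 members, where 6.84% did. The rule keeps every octet library above every isolated and joined library. Transcripts that fall far from paired to octet worms are thus left out, and these counts are a description.

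The lowest octet to paired ratios belonged to RNA815_23606.2 (0.756), RNA815_41075 (0.775), RNA815_23191 (0.830) and RNA815_25120 (0.866). RNA815_41075 had 68.0, 61.0, 49.6 and 54.9 CPM in the isolated libraries, 51.5, 59.0, 48.6 and 67.6 in the joined, 143, 95.4, 137 and 217 in the paired and 129, 107, 87.7 and 135 in the octet libraries. Paired replicate 4 was its highest library, paired replicates 1 and 3 were just above the highest octet library, and paired replicate 2 was within the octet range. RNA815_23606.2 had 15.5, 14.1, 18.8 and 25.7 CPM in the isolated libraries, 15.2, 9.73, 16.4 and 23.7 in the joined, 44.1, 28.2, 58.1 and 51.3 in the paired and 28.6, 33.3, 30.8 and 44.8 in the octet libraries. Its 2 highest libraries, paired replicates 3 and 4, were above all octet libraries, and paired replicate 2 was below all of them. The fitted octet minus paired log2 difference was -0.22 (SE 0.24) with a 95% interval of -0.70 to 0.27 in RNA815_23606.2 and -0.17 (SE 0.21) with an interval of -0.59 to 0.26 in RNA815_41075, so in neither did the difference exceed the spread between pools.

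Ratios nearest to 1 were found in RNA815_31397, RNA815_2270.1 and RNA815_7257.4. RNA815_31397 stood at 10.11, 8.73, 8.49 and 8.55 CPM in the isolated libraries, 8.81, 6.75, 6.27 and 7.72 in the joined, 14.8, 14.1, 14.7 and 16.3 in the paired and 20.9, 13.1, 11.7 and 14.1 in the octet libraries. The octet libraries enclosed the paired ones, from 11.7 CPM in replicate 3 to 20.9 CPM in replicate 1, so the equal means of 15.0 ± 0.958 and 15.0 ± 4.12 CPM come from unequal spreads. RNA815_2270.1 had 21.8, 23.1, 21.7 and 17.0 CPM in the paired and 23.9, 19.3, 25.1 and 15.3 in the octet libraries, and the lowest library of both groups was replicate 4. The 95% interval of the fitted octet minus paired log2 difference was -0.24 to 0.50 in RNA815_31397 and -0.18 to 0.46 in RNA815_2270.1.

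The share of the set that looks level between paired and octet worms rested on the scaling. The rule divides by library totals without RNA815_80.1, whereas TMM scaling, which sets libraries to each other by a trimmed mean of ratios over many transcripts, raised the octet libraries relative to the paired ones. The median octet to paired ratio of the members was 1.12 on the rule's scale, 1.24 with TMM and 1.17 with the full column total. Over the 23788 transcripts with a mean of at least 4 CPM it was 0.925, 1.03 and 0.970 in that order, so the members stood above the median transcript on each scale. The lower limit that the rule puts on octet libraries favours this. With TMM scaling 58 of the 157 members had a ratio of 1.3 or more, and with the full total 26. The octet mean was below the paired mean in 34, 11 and 23 members on the 3 scales. RNA815_3906 moved from a ratio of 1.02 on the rule's scale to 1.14 with TMM, and RNA815_31397 from 1.000 to 1.12.

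**Figure D3:**
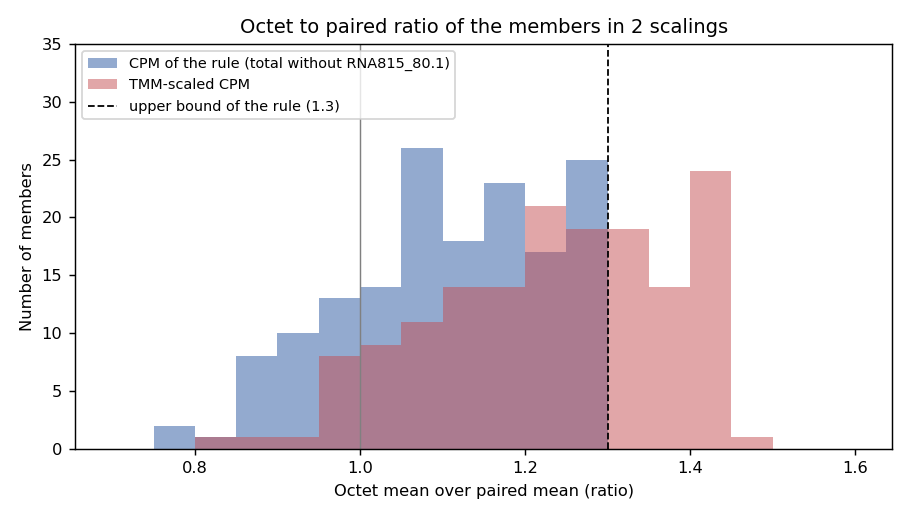
Number of members by octet mean over paired mean, on the rule's scale (blue) and with TMM scaling (red), with the bound of 1.3 dashed and a line at 1. On the rule's scale no member passes the bound, by construction, and with TMM 58 do.

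In the fit with TMM scaling, the octet minus paired log2 difference had a median of 0.32 over the members and 0.00 over all 40265 transcripts, and it was positive in 149 of 157. With library sizes as in the rule the medians were 0.16 and -0.16, and 124 members were positive. The scaling thus moved all transcripts by 0.16, and 149 members lay above the median of all transcripts in either case. A single member, RNA815_713.1, passed for octet over paired worms (limma-voom, adjusted p = 0.0463), beside 1.03% of all transcripts higher and 1.44% in either direction. It had 202, 211, 209 and 184 CPM in the isolated libraries, 206, 223, 178 and 194 in the joined, 427, 436, 418 and 297 in the paired and 519.6, 440.3, 545 and 468 in the octet libraries. Paired replicate 4 was low, and all octet libraries were above all paired libraries. Its difference was 0.49 (SE 0.12) and its octet to paired ratio 1.25. At an unadjusted p under 0.05 the higher members numbered 68, beside 11.1% of all transcripts higher and 19.9% in either direction, and the lower members 0. On the rule's scale the adjusted count was 0, beside 1.1% of all transcripts in either direction. The unadjusted one was 22, all of them higher. There, 1930 of the 40265 transcripts were higher, and 21.7% differed in either direction. The rule caps this ratio and also keeps every octet library above every isolated and joined library. The counts, their direction and the place above the median of all transcripts are therefore a description. The adjusted count also moved with single libraries: leaving out paired replicate 4 gave 26 members beside 9.95% of all transcripts in either direction, leaving out octet replicate 3 gave 23 beside 6.06%, and leaving out isolated replicate 3 gave 5 beside 2.69%. The share over all transcripts thus rose with the members' count. Each other library left out gave 0 members, beside 0.0574% to 1.08% of all transcripts.

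In many members the intervals were too wide to tell equal levels in paired and octet worms from an octet level at the bound of the rule. The 95% interval of the octet minus paired log2 difference included 0 in 89 members with TMM scaling and in 135 on the rule's scale. It lay wholly above 0 in the other 68 and 22 members, in that order. Its upper end reached log2 of 1.3, which is 0.38, in 150 and 118 members in that order, and stayed below it in 7 and 39. The median half-width of the interval was 0.36.

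Joined against isolated worms is the comparison that the rule does not set directly, although libraries of both groups enter it elsewhere. The rule keeps every joined library below every paired and octet library. A transcript raised to the paired level within a day could thus not be a member. As larger rises are cut off in this way, the counts and directions are a description of the members. They do not tell how many transcripts a day with a partner moved. In limma-voom 0 of 157 members passed an adjusted p under 0.05, beside 0 of 40265 transcripts (0%), and the lowest adjusted p of a member was 0.831. Neither did any pass with limma-trend, the other test run. At an unadjusted p under 0.05, 13 members (8.28%) differed, beside 5.89% of all transcripts, with 4 higher, beside 2.98%, and 9 lower, beside 2.91%. That count was 12 with limma-trend, beside 5.74% of all transcripts, and 7 without joined replicate 3, beside 5.74% too. Fitting the 8 libraries of both groups alone gave 21, beside 7.82%, where 3 transcripts passed the adjusted threshold and none was a member. It was 24 with a quality weight per library, beside 8.28%, and 22 without paired replicate 4 and isolated replicate 3 together, beside 5.43%.

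The joined minus isolated log2 difference had a median of -0.05 over the members and 0.00 over all transcripts, with 68 members positive and 89 negative. Over all transcripts 50.5% were positive. With library sizes as in the rule the medians were 0.03 and 0.08, and 87 members were positive. The sign of the members' median thus depended on the scaling, and it lay below the median of all transcripts in both. The differences ran from -0.81 to 0.54, with quartiles of -0.23 and 0.09. Their 95% intervals included 0 in 144 members and had a median half-width of 0.41. In 82 members the interval lay wholly within a 1.5-fold change in either direction, and in the other 75 it reached past a change of that size.

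**Figure D4:**
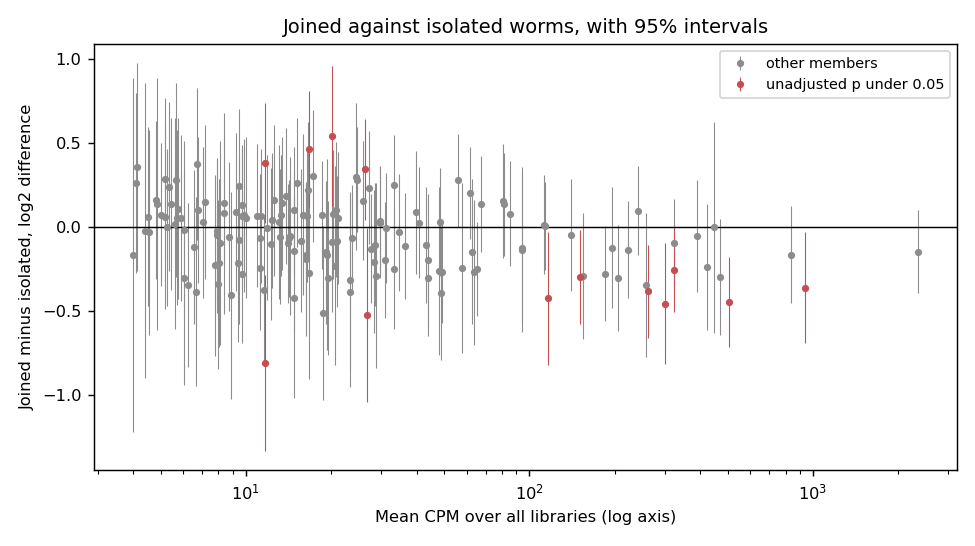
Fitted joined minus isolated log2 difference of each member (points) with its 95% interval (lines), against its mean CPM on a log axis; red marks the 13 members at an unadjusted p under 0.05. Among members above 100 CPM most points lie below 0, while those under 20 CPM lie on both sides.

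The direction differed with abundance, in the members and over all transcripts. Among the 52 most abundant members, above 29.7 CPM, 38 were lower in joined than in isolated worms and the median difference was -0.14, against -0.09 over the 5512 transcripts at the same levels. In the 53 members of the middle range the median was -0.06, beside -0.01 over 7831 transcripts, and in the 52 scarcest it was 0.05, beside 0.02 over 13761. Spearman's rho of mean CPM with the difference was -0.32 across the 157 members and -0.16 across the 40265 transcripts. These transcripts share the same libraries and are no replicates. Of the 10 most abundant members 8 had a lower mean in joined than in isolated worms, and of the 20 most abundant 17 did, but of the members ranked 21 to 30 3 did. Lower transcripts were not counted over all transcripts at these levels, so the counts by abundance are a description.

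RNA815_14903.1 was the only member with every joined library below every isolated library, where 1.51% of the transcripts with a mean of at least 4 CPM showed this. It had 365, 370.4, 344 and 347 CPM in the isolated libraries, 281, 281, 244 and 302 in the joined, 601, 565, 658 and 650.5 in the paired and 869.5, 656, 701 and 826 in the octet libraries. The joined minus isolated difference was -0.45 (SE 0.13) with an unadjusted p of 0.00211. RNA815_14903.2, which shares its number, had 176, 194, 157 and 199 CPM in the isolated libraries, 140.4, 166, 132 and 149 in the joined, 311, 318, 371 and 338 in the paired and 442, 327, 361 and 414 in the octet libraries. Here joined replicate 2 lay within the range of the isolated libraries, and the difference was -0.38 (SE 0.13). The adjusted p was 0.831 for both (limma-voom).

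The largest negative difference was that of RNA815_19719, with 5.97, 8.098, 7.10 and 8.89 CPM in the isolated libraries, 4.73, 3.61, 6.15 and 3.45 in the joined, 18.98, 15.2, 18.0 and 13.8 in the paired and 19.6, 23.1, 18.9 and 11.8 in the octet libraries. Joined replicate 3 lay above isolated replicate 1, and the other 3 joined libraries lay below all isolated ones. The difference was -0.81 (SE 0.25) with an interval of -1.33 to -0.29 and an adjusted p of 0.831 (limma-voom). RNA815_7257.1 had 206, 172, 259 and 241 CPM in the isolated and 182, 135, 169 and 187 in the joined libraries, which overlapped. Its difference was -0.46 (SE 0.17), with an interval of -0.82 to -0.10. RNA815_15513 and RNA815_8445.2 had differences of -0.52 (SE 0.25) and -0.51 (SE 0.25), and in both the joined and isolated libraries overlapped.

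Every joined library was above every isolated library in 6 members, where 3.54% of the transcripts with a mean of at least 4 CPM showed this. They were RNA815_15324, RNA815_11327.2, RNA815_15254.2, RNA815_4237, RNA815_11599 and RNA815_39213. RNA815_15254.2 had the largest positive difference of the set, with 10.6, 10.5, 13.1 and 6.498 CPM in the isolated libraries, 15.3, 13.9, 16.1 and 16.1 in the joined, 26.7, 27.0, 20.4 and 24.1 in the paired and 33.0, 22.7, 35.96 and 29.3 in the octet libraries. Its joined libraries lay between the isolated and the paired ones with no overlap. The difference was 0.54 (SE 0.20) with an interval of 0.13 to 0.96. RNA815_4237 had 12.1, 7.78, 10.5 and 9.75 CPM in the isolated libraries, 15.1, 14.0, 13.9 and 15.4 in the joined, 15.8, 19.8, 20.6 and 21.2 in the paired and 22.3, 25.9, 21.9 and 21.4 in the octet libraries. It showed the same order of isolated, joined and paired libraries, and a difference of 0.47 (SE 0.17). RNA815_11327.2 had 17.7, 17.9, 17.3 and 15.2 CPM in the isolated and 21.3, 22.6, 24.6 and 23.0 in the joined libraries, and 27.0, 31.9, 27.6 and 32.5 in the paired ones. RNA815_39213 had 4.29, 3.33, 3.90 and 4.28 CPM in the isolated, 7.01, 4.71, 5.80 and 4.43 in the joined and 9.17, 9.47, 7.20 and 9.34 in the paired libraries, with a difference of 0.37 (SE 0.22). RNA815_4071, whose joined replicate 4 lay within the isolated range, had a difference of 0.38 (SE 0.17). None of these differences passed, and the lowest adjusted p among them was 0.831 (limma-voom).

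The other classes among the 713 separated transcripts give a frame for these values. The median joined minus isolated log2 difference was -0.05 in the members and -0.04 in the 91 with an octet to paired ratio of 1.3 or more. It was 0.20 in the 85 with a paired to isolated ratio of 4 or more and -0.20 in the 380 with a ratio under 1.6. The median octet minus paired difference was 0.32 in the members, and 0.66, 0.97 and 0.40 in the other classes in that order. The classes were cut by their levels in these libraries, and the differences between them were not tested.

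Of the members, 100 carried a number of their own and 57 (36.3%) shared theirs with other transcripts, beside 33.9% of the transcripts with a mean of at least 4 CPM. The table gives transcripts of 1 number a dot and a suffix. The 57 members carried 49 numbers, and 6 of these numbers held more than 1 member. Reads that match several transcripts are divided between them by estimation, so a level within a number is less certain than the sum. In 26 of the 49 numbers the summed level met the rule too, and in 39 the sum kept every paired and octet library above every other library.

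The other transcripts of these numbers mostly went the same way. There were 138, of which 52 had a mean of at least 4 CPM. Of the 52, 46 had a higher mean in paired than in isolated worms and 20 a ratio of at least 1.6. In 10 of them every paired and octet library was above every other library. Their median paired to isolated ratio was 1.48, against 1.79 in the members and 0.996 over all transcripts at that level.

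In RNA815_16662 3 of the 4 transcripts were members. RNA815_16662.3 had 305, 332, 389 and 405 CPM in the isolated libraries, 355, 267, 244 and 379 in the joined, 602, 436, 618 and 693 in the paired and 559.5, 618, 595 and 729.9 in the octet libraries. Its paired replicate 2 was low, not far above isolated replicate 4, and RNA815_16662.2 showed the same low pool, with 195, 135, 188 and 239.6 CPM in the paired libraries. Summed over the number, the level was 505 ± 54.6 CPM in isolated and 848 ± 162 in paired worms, with a paired to isolated ratio of 1.68 and an octet to paired ratio of 1.11. In RNA815_8445 3 of 4 were members, with paired to isolated ratios of 2.14, 2.15 and 3.22 in RNA815_8445.3, RNA815_8445.2 and RNA815_8445.4. The most abundant transcript of that number, RNA815_8445.1, had a ratio of 1.33, and the sum 1.607.

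RNA815_23023 was alike in its 5 transcripts, with paired to isolated ratios of 2.197 to 2.41 and octet to paired ratios of 0.868 to 0.913. Only RNA815_23023.3 met the rule, because in the other 4 the lowest paired or octet library overlapped the highest other library. RNA815_7257 went the other way. Its 2 members, RNA815_7257.1 and RNA815_7257.4, were minor parts of a number whose sum had a paired to isolated ratio of 1.302 and an octet to paired ratio of 1.49. Its most abundant transcript, RNA815_7257.2 at a mean of 2429 CPM, had a ratio of 1.44 for paired over isolated and 1.48 for octet over paired worms.

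In other numbers the transcripts differed from each other. RNA815_343.2 went from 84.5 ± 12.2 CPM in isolated to 146 ± 27.5 in paired worms (SD, n = 4 each), while RNA815_343.3 went from 234 ± 22.3 to 219 ± 47.6 and RNA815_343.1 from 102 ± 8.31 to 98.7 ± 11.5. In RNA815_1715, RNA815_1715.5 was a member with ratios of 1.79 and 1.03. RNA815_1715.6, with 4.21, 1.52, 0 and 5.34 CPM in the isolated libraries, 0, 0.0942, 1.81 and 8.55 in the joined, 16.2, 9.44, 22.1 and 18.7 in the paired and 26.3, 31.6, 30.2 and 35.2 in the octet libraries, had a paired to isolated ratio of 6.01 and an octet to paired ratio of 1.85. RNA815_1715.2 had a paired to isolated ratio of 1.08.

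**Figure D5:**
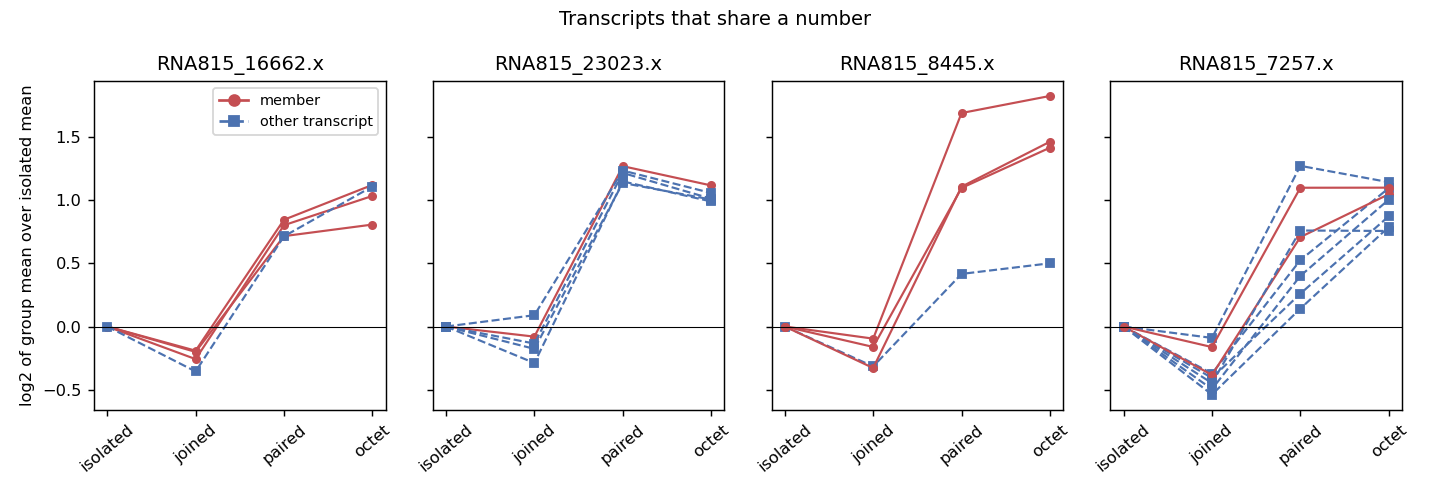
log2 of the group mean over the isolated mean for transcripts that share a number with members (red circles, solid: members; blue squares, dashed: others with a mean of at least 4 CPM). The lines of RNA815_16662 and RNA815_23023 run close together, those of RNA815_8445 differ in height, and in RNA815_7257 most other transcripts climb further from paired to octet worms.

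Within a group the members did not move up and down as 1 block. The median over members of the log2 deviation of a library from its group mean lay between -0.10 and 0.10. It was highest in octet replicate 1 and paired replicate 4 and lowest in octet replicate 3. Correlated over the 16 libraries after the group means were taken out, the 12246 pairs of members had a median r of 0.03, with quartiles of -0.22 and 0.29, and 0.13 with TMM scaling. The points share libraries, and pairs that share a number also share reads. The 10 pairs of members of the same number had a median r of 0.75. The first component of these deviations held 25.7% of their variance and ran from paired replicate 4 (0.54) to paired replicate 2 (-0.46), and the second held 22.1%. Paired replicates 2 and 4 also differed most of the 24 within-group pairs over the transcripts of the whole table (chi-square per degree of freedom 21.5). Their contrast is thus not particular to the members.

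Some members varied closely together between pools. At r of 0.9 or more, 18 of the 12246 pairs linked 24 members into 8 groups, and 112 pairs had an r of -0.7 or lower. The share of such pairs among other transcripts was not computed, so these groups are a description. RNA815_16662.3, RNA815_18497.2, RNA815_37646, RNA815_8445.2 and RNA815_8445.3 were low in paired replicate 2 and joined replicates 2 and 3, and high in joined replicate 4. RNA815_41075, RNA815_5423.1 and RNA815_15431.1 were high in paired replicate 4 and low in paired replicate 2 and octet replicate 3. RNA815_11755 and RNA815_8633 went the other way, with 90.9, 121, 86.1 and 70.5 CPM in the paired libraries in RNA815_11755 and 277, 334, 254 and 244 in RNA815_8633, highest in replicate 2 and lowest in replicate 4. The 34 members with a lower octet than paired mean had a median log2 deviation of 0.23 in paired replicate 4 and -0.22 in paired replicate 2, against 0.03 and -0.03 in the other 123. The 34 were picked by their paired mean in these same libraries, so the choice favours members with a high paired library. What sets these pools apart was not tested.

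Membership itself depended on the same pools. Applied without paired replicate 2, the rule named 259 transcripts, 129 of them among the 157, and without paired replicate 4 it named 259 with 119 shared. With TMM-scaled CPM it named 125, 93 of them shared, and with the full column total 159, 122 of them shared. With group means alone, and no demand that libraries stay apart, it named 479.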

How the data were processed

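Whole-worm RNA was extracted with TRIzol, made into mRNA libraries by a standard Illumina protocol and sequenced as single-end reads of 100 bases, per the labels' protocols and the series' design text. Bowtie 0.12.7 and RSEM 1.1.19 are named in the submitters' processing notes. The deposited values are estimated counts per transcript, written with decimal commas and not scaled for depth; 23.8% of the values are not whole numbers. RSEM divides reads between similar transcripts by estimation, so their levels depend on each other. Per-sample columns were matched to libraries by the header in each label.

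Levels are CPM of the column total without RNA815_80.1, as in the member rule, and were computed here, as were all tests. For the tests, estimated counts were rounded, the level filter asked for 1.26 CPM in 4 or more libraries, or 10 reads at the median library size, with at least 15 reads summed over all libraries, and TMM factors were computed with trims of 30% and 5%. This kept 40265 transcripts, all 157 members included. limma-voom, run with limma 3.58.1 under R 4.3.3 and a pseudocount of 0.5, fitted the 4 groups over 16 libraries with 12 residual degrees of freedom. Differences are given as log2 CPM with that pseudocount, which understates changes of scarce transcripts. Tests were two-sided, intervals are 95% intervals, and p-values were Benjamini-Hochberg adjusted over all 40265 transcripts, with a threshold of 0.05. Deviations of libraries from their group mean used log2 of CPM plus 0.5. The scripts were tested on simulated counts.

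A library held between 7302416 and 10112451 estimated reads. Chi-square values over their degrees of freedom, 2.76 to 21.5 in the 24 within-group pairs of libraries, exceeded counting noise, and each library was kept as its own replicate. The labels do not say that the pools came from separate cultures. The members, the lists and the comparisons were chosen with earlier results of these data known. Members were named by a rule: the 6 most abundant, the 4 highest and 2 lowest paired to isolated ratios, the 4 lowest octet to paired ratios and the 3 nearest to 1, the 4 highest and 4 lowest joined minus isolated differences, the 4 widest gaps, members that share a number, and the transcripts on either side of each limit. RNA815_713.1, the transcripts that vary together and those of shared numbers outside that rule were picked after their values were seen. The alternatives covered other scalings, filters, tests and limits of the rule, and each library left out. Those for the comparisons that the rule used were added after seeing the data.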

Additional observations from a re-analysis of the deposited data

Results flagged for a closer look

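In 5 of 136 groups of 4 libraries tested, over the 33 named members and the summed level of all members, 1 library stood apart from the other 3 (its gap to the nearest of them, over the group's range, was above Dixon's 95% critical value). Chance flags about 1 in 20 groups, so this number of flags is not itself a result. RNA815_16433 reached 30.7 CPM in octet replicate 2, where the other octet libraries had 19.7 to 21.4 CPM. RNA815_25120 had 9.19 CPM in isolated replicate 3, against 5.13 to 5.51 CPM in the other isolated libraries. RNA815_31397 had 10.11 CPM in isolated replicate 1, against 8.49 to 8.73 CPM. RNA815_3897 had 472 CPM in joined replicate 3, below 520.3 to 529 CPM in the other joined libraries. RNA815_39213 had 7.20 CPM in paired replicate 3, below 9.17 to 9.47 CPM in the other paired libraries.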

How the results depend on the processing

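For joined against isolated worms, 0 members passed under each alternative run, a threshold of 0.1 and each library left out included. The members' median difference was -0.07 to -0.03 with a library left out, and 0.0315 with library sizes without RNA815_80.1, which moves all transcripts by a like amount. That setting also took the octet minus paired median to 0.16; with a library left out it was 0.26 to 0.39. The joined minus isolated differences of 8 named members kept their direction and their side of the threshold in all 216 values computed. These members were chosen for the largest differences in the same data and stood far from the threshold, so a change was unlikely from the start.

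Members passing for octet over paired worms numbered 3 with median-ratio factors (1.64% of all transcripts in either direction) and 53 with a quality weight per library (13.5%). They numbered 28 without paired replicate 4 and isolated replicate 3 together (12.9%). The count was 0 with upper-quartile factors (1.2%), library sizes without RNA815_80.1 (1.1%), limma-trend (1.56%) or a fit to the 8 libraries compared (0.0224%). With a library left out the count was 0 to 26 (0.0574% to 9.95%). With the replicate number as a block it was 15 (5.93%). The labels name nothing that libraries of a replicate number share. The column headers, however, number such libraries in a row, in the order octet, paired, joined and isolated, without saying why. The deviations of same-numbered libraries correlated at -0.16 to 0.45, over 0.1 in 10 of 24 pairs. The main fit did not take them as pairs, and whether they shared a batch was not tested. Replicate 4 of joined, paired and octet worms correlated at 0.31 to 0.45, and 7 of 16 libraries correlated best with one of their own number. For paired over isolated worms the count was 86 (1.11%) in the fit to 8 libraries and 88 to 142 (1.1% to 2.4%) with a library left out. It was 102 to 143 for paired over joined worms (2.33% to 5.99%) and 155 to 157 for octet over isolated worms (14.1% to 24.8%). For octet over joined worms it was 157 in each case (26.7% to 37.4%).

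The rule named 37 transcripts with a paired to isolated ratio from 2, 479 by group means alone, 132 when transcripts of a number were summed, and 148 to 259 with a library left out. The median correlation between members was 0.135 with TMM scaling, 0.0181 with the full total, and 0.0171 to 0.0359 with a library left out. Among ratios of named members recomputed on other scales, 131 moved by less than the spread between pools, and that of RNA815_3906 for octet over paired worms, 1.14 with TMM, moved by more. All scales use the same libraries, so a shift common to a group could hardly exceed this spread. The count therefore does not show that the ratios are stable. The members' median octet to paired ratio moved from 1.12 to 1.24 with TMM. The causes were not tested. With 4 pools per group, the median interval reached 0.41 log2 units to either side for joined against isolated worms, and limits by abundance were not compared.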
